A study of Mus musculus with 7 samples.

Results

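Titin, nebulin and the proteins of the Z disc and M band hold the contractile filaments of striated muscle in register. Their 10 genes on the arrays were Ttn, Neb, Actn2, Actn3, Myoz1, Myoz2, Tcap, Ldb3, Myom1 and Myom2, taken as the probes that carry 1 of these names in the array files. They hold 17 of the 55681 probes, or 10 of 34947 gene names. The series is about muscle-forming cells of the dermis and their relation to satellite cells, the resident stem cells of muscle, and it profiled 7 populations of mouse cells with 1 array each. Their names give a line of mice and the presence or absence of Sdc4, the gene of syndecan-4, a proteoglycan that satellite cells display at their membrane. The Sdc4+ group had 3 arrays. They held Myf5SOR+ cells of a line with Cre knocked into the myogenic regulator Myf5 (B6.129S4-Myf5tm3(cre)Sor/J), Cspg4- cells of a Cspg4-cre transgenic line (B6,FVB-Tg(Cspg4-cre)1Akik/J), and cells of outbred Crl:CD1(ICR) mice. The Sdc4- group also had 3 arrays. They held B195AP+ cells of a B195AP-Cre line, Cspg4- cells of the same Cspg4-cre line, and CD1 cells. Cspg4+ cells of the Cspg4-cre line, which carry no Sdc4 label, were on the remaining array. The labels do not give the driver of B195AP-Cre, and they name no reporter allele, sorting method, age or sex. The labels give 8 to 10 animals per phenotype and 10 to 200 ng of RNA per array. The p-values below therefore measure the spread between arrays that also differ in mouse line.

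The sarcomere, the repeating unit of the myofibril, is bounded by Z discs, where alpha-actinin crosslinks thin filaments of opposite orientation, and is centred on the M band, where myomesins tie the thick filaments together. Titin runs from the Z disc to the M band as an elastic scaffold, and nebulin lies along the thin filament of skeletal muscle. These genes are switched on when myoblasts leave the cell cycle and form myotubes, and they are silent or very low in satellite cells and fibroblasts.

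Levels are log2 processed signals minus the 75th percentile of their array, so 0 is the level of that percentile and 1 unit is a factor of 2. Each array's software marked spots as well above background or not, and such spots made up 45.9% to 50.8% of those on 6 arrays and 57.2% on the Cspg4+ array. All 7 arrays were on 1 slide, scanned once. Slide row 1 held the Sdc4+ arrays and row 2 all others, so the row and Sdc4 status cannot be told apart. Bright streaks marked the B195AP+ array in the block of spots with a row number up to 200 and a column number up to 130, where 7.66% of the brighter spots differed by over 4-fold from the median that the remaining arrays gave, against 0.797% elsewhere on it and 0.115% to 0.717% in that region on the others. Of the 17 probes, 11 lay in this region, among them the probes that stand for Ttn, Actn2, Tcap, Ldb3 and Myom2. The levels of Neb, Actn3, Myoz1, Myoz2 and Myom1 came from probes outside it. Sdc4 transcript itself did not separate the groups. It stood at 3.80, 6.29 and 6.35 in Myf5SOR+, Cspg4- and CD1 cells of the Sdc4+ group. In B195AP+, Cspg4- and CD1 cells of the Sdc4- group it stood at 1.98, 5.11 and 5.28. Myf5SOR+ cells made the overlap, while within the Cspg4-cre line and within CD1 the Sdc4+ cells read higher. The Sdc4 spot lay in the streaked region of the B195AP+ array. Of 12 satellite cell markers, Pax7, Pax3, Myf5, Calcr and Chrdl2 were not well above background on any array, Cdh15, Itga7, Vcam1, Sdc3, Cd34 and Sdc4 were so on all 7, and Des on 5.

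The probes behind some of the larger differences and behind the fast alpha-actinin are shown here as the 60 bases printed on the array, 5′ to 3′ on the transcript strand, with positions in mm9. No capitals are used because no motif is marked. The Ttn probe at chr2:76551742-76551801 lies on the minus strand, as do the other 4 shown.
Ttn A_52_P454295: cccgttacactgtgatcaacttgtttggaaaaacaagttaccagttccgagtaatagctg
A second Ttn probe at chr2:76655847-76655906 gave a different pattern across the arrays, described with the probe comparison. Its base composition is 55.0% A, against 30.0% for the probe above.
Ttn A_55_P2153031: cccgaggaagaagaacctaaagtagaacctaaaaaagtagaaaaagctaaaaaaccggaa
The Neb probe lies at chr2:52097549-52097608.
Neb A_55_P2116973: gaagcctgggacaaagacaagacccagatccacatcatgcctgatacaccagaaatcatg
The probes of the paralogs Actn2 and Actn3 map to chr13:12364990-12367362 and chr19:4861727-4862212. Both spans are longer than the 60 bases of the probe, so each probe crosses at least 1 splice junction and reads spliced RNA.
Actn2 A_51_P108266: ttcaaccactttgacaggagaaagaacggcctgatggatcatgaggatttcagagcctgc
Actn3 A_52_P656699: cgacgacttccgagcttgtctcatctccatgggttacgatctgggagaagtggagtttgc
At their best alignment without gaps these 2 sequences overlap by 19 bases with 13 identical, and the longest run they share is 6 bases.

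Of the 10 genes, 7 could be tested because a probe was well above background on at least 3 arrays: Ttn, Neb, Actn2, Actn3, Tcap, Ldb3 and Myom2. All 7 had a lower mean in Sdc4+ than in Sdc4- cells, and for the other 3 the readings were at background on all or all but 1 array. Because a probe can meet this rule through the Sdc4- arrays alone, counts over the 7 are a description. Their differences ran from -0.65 to -4.98 with a median of -3.50, against a median of -0.06 and 56.6% lower over all 19760 genes tested. With Ttn and Actn2, dim on all Sdc4+ arrays, at their lower bounds the median was -2.69, and with every dim Sdc4+ reading at its bound it was -2.01. In 6 of the 7, every Sdc4+ array lay below every Sdc4- array, which was the case for 9.59% of all genes. None of the 7 passed limma's test after Benjamini-Hochberg adjustment over all genes (adjusted p = 0.421 to 0.711). No gene of the array did (0%), with 1720 genes at an unadjusted p under 0.05 and a smallest adjusted p of 0.222. An unadjusted p under 0.05 with a lower level in Sdc4+ cells was reached by the same 6 members and by 5.41% of all genes. Ttn, Neb, Actn2 and Myom2 stood at positions 7, 12, 16 and 27 of the 19760 genes ordered by p. These positions are a description too. Ttn passed the filter through the Sdc4- arrays alone, and dim Sdc4+ readings entered the fit as values. An exact permutation test of 3 against 3 arrays cannot give a two-sided p below 0.1, the value for each gene whose groups did not overlap. Each array measures a pool of RNA, so fewer cells of a type and less RNA per cell cannot be told apart in any of these values.

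**Figure D1:**
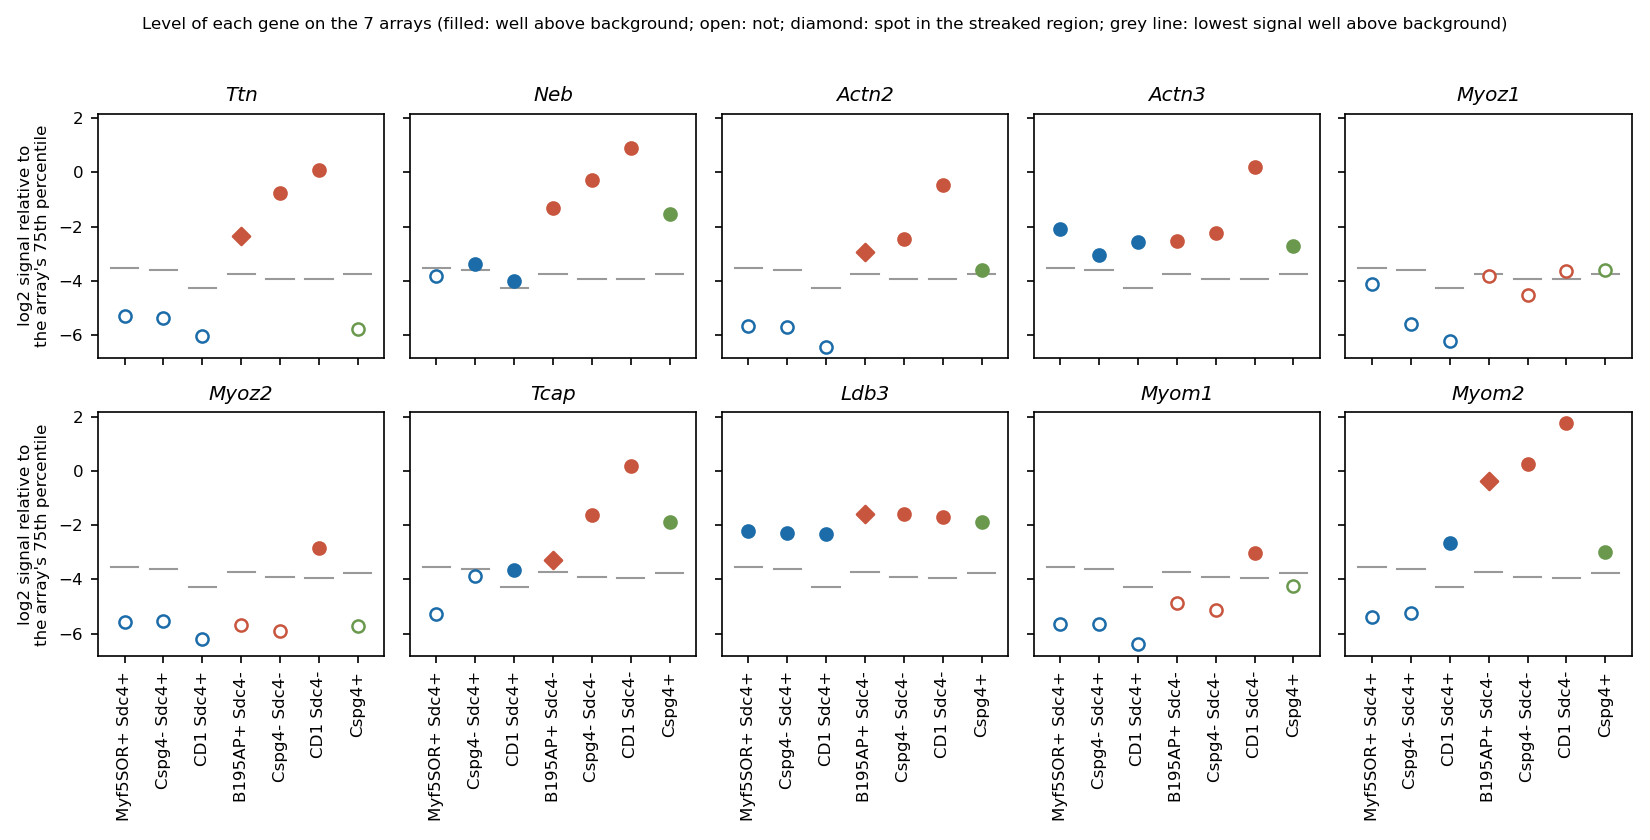
Level of each gene on the 7 arrays, as log2 signal relative to the array's 75th percentile, with 1 point per array (blue Sdc4+, red Sdc4-, green Cspg4+). Filled points are well above background, open points are not, diamonds mark B195AP+ spots in the streaked region, and grey lines show the lowest signal well above background on each array. Ttn, Neb, Actn2 and Myom2 climb from B195AP+ to CD1 Sdc4- cells, while Ldb3 stays between -2.31 and -1.57 on all 7 arrays.

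Ttn, the gene of the giant filament protein, was measurable in the Sdc4- populations alone with its main probe. Its level was -2.34 in B195AP+, -0.76 in Cspg4- Sdc4- and 0.10 in CD1 Sdc4- cells. On the other arrays the probe was not well above background, with readings of -5.30 in Myf5SOR+, -5.37 in Cspg4- Sdc4+, -6.03 in CD1 Sdc4+ and -5.79 in Cspg4+ cells. The Sdc4 groups did not overlap. With each dim reading at the lowest signal well above background on its array, the nearest arrays were 1.19 log2 units apart, less than the range of 2.44 among the Sdc4- arrays. The means were -5.56 ± 0.40 and -0.998 ± 1.24 (SD, n = 3 each). The difference was -4.57 (SE 0.60, limma adjusted p = 0.421). As the Sdc4+ readings only bound the level, Ttn was at least 6.96-fold lower in Sdc4+ cells on these processed signals. Such a bound uses the mean of the bright group. On each dim array it takes the higher of the probe's reading and the lowest signal well above background there. That signal is no strict limit: on CD1 Sdc4-, Myoz1 had 17.1 without the mark, and the lowest marked signal was 13.9. Every bound in this report holds for the main processing alone. With normexp, another background correction, differences were smaller than at the bounds. Ttn gave -1.31 against -2.80, Neb -1.56 against -3.40, Actn2 -0.92 against -1.84, Tcap -0.90 against -2.01 and Myom2 -2.10 against -3.81. Without the B195AP+ array, whose Ttn spot lay among the streaks, the difference was -5.24, and without the CD1 Sdc4- array it was -4.02.

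Neb encodes nebulin, the protein that runs along skeletal thin filaments, and its probe had detectable signal on 6 of the 7 arrays. The Sdc4- levels were -1.30 in B195AP+, -0.29 in Cspg4- and 0.90 in CD1 cells. The Sdc4+ levels were -3.83 in Myf5SOR+, where the spot was not well above background, -3.37 in Cspg4- and -3.99 in CD1 cells. Cspg4+ cells had -1.52, just below the lowest Sdc4- array and far from the Sdc4+ arrays. The Sdc4 groups did not overlap (means -3.73 ± 0.32 and -0.23 ± 1.101, SD, n = 3 each), and Neb was 11.3-fold lower in Sdc4+ cells (-3.50, SE 0.54, limma adjusted p = 0.433), or at least 10.6-fold with the dim Myf5SOR+ reading at its bound. Its main probe lay outside the streaked region.

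The alpha-actinins of the sarcomere behaved unlike each other. Actn2, the isoform of all striated muscle fibres, gave -2.95 in B195AP+, -2.46 in Cspg4- Sdc4- and -0.46 in CD1 Sdc4- cells, and -3.61 in Cspg4+ cells. Readings on the Sdc4+ arrays were -5.66, -5.72 and -6.43 for Myf5SOR+, Cspg4- and CD1, all without signal well above background. Actn2 was thus at least 3.58-fold lower in Sdc4+ cells, with no overlap between the groups (difference -3.98, SE 0.64, limma adjusted p = 0.433). Without the B195AP+ spot, which lay in the streaked region, the difference was -4.47, and without the CD1 Sdc4- array it was -3.23. Actn3, the isoform of fast fibres, was well above background everywhere. It stood at -2.09 in Myf5SOR+, -3.03 in Cspg4- Sdc4+ and -2.55 in CD1 Sdc4+ cells, against -2.53 in B195AP+, -2.22 in Cspg4- Sdc4- and 0.20 in CD1 Sdc4- cells. The groups overlapped, and Cspg4+ cells lay among them at -2.72. The CD1 Sdc4- array alone stood apart: the difference between the groups was -1.04 (SE 0.72, limma adjusted p = 0.711, exact permutation p = 0.4) and shrank to -0.18 without it.

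Among the proteins attached to titin and alpha-actinin at the Z disc, Tcap and Ldb3 were tested. Tcap encodes telethonin, which caps the titin end in the Z disc. Its levels were -3.30 in B195AP+, -1.64 in Cspg4- and 0.18 in CD1 cells of the Sdc4- group, and -1.89 in Cspg4+ cells. In the Sdc4+ group they were -5.27 in Myf5SOR+, -3.88 in Cspg4- and -3.67 in CD1 cells, with CD1 alone well above background. The groups did not overlap and came within 0.37 log2 units of each other, or 0.23 with dim readings at their bounds, and the difference was -2.69 (SE 0.88, limma adjusted p = 0.515). With the 2 dim Sdc4+ readings at their bounds Tcap was at least 4.03-fold lower. The nearest pair of spots above background, CD1 Sdc4+ and B195AP+, was separated by little more than the SD of 0.33 between repeated dim spots on the B195AP+ array. Without that array's spot, which lay among the streaks, the Tcap difference was -3.54, and without the CD1 Sdc4- array it was -1.80.

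Ldb3 encodes a PDZ and LIM protein (Cypher, or ZASP) that binds alpha-actinin. By its main probe, Ldb3 had the smallest range of the 10 genes. Its levels were -2.22, -2.27 and -2.31 in Myf5SOR+, Cspg4- and CD1 cells of the Sdc4+ group, and -1.59, -1.57 and -1.70 in B195AP+, Cspg4- and CD1 cells of the Sdc4- group. Cspg4+ cells lay between the groups at -1.87. All spots were well above background, the groups did not overlap, and the gap of 0.51 between them exceeded the range within Sdc4+ (0.09) and within Sdc4- (0.14). Ldb3 was 1.56-fold lower in Sdc4+ cells (-0.65, SE 0.17, limma adjusted p = 0.481). By the main probe the 3 Sdc4- arrays did not differ beyond the scatter of repeated spots. The SD of that scatter was 0.08 to 0.15 at signals of 50 to 500 and larger at dimmer ones. The second Ldb3 probe, A_65_P11603, differed among these arrays, at -3.79 in B195AP+, -3.50 in Cspg4- and -2.35 in CD1 cells. Its B195AP+ reading was not well above background.

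Myoz1 and Myoz2 encode calsarcins, which link alpha-actinin to calcineurin in fast and in slow or cardiac muscle, respectively. Neither passed the filter. Myoz1 was not well above background on any array, with readings from -6.20 to -3.60. Myoz2 was measurable in CD1 Sdc4- cells alone, at -2.84, and read between -6.21 and -5.52 elsewhere. With no filter on dim probes, their adjusted p-values between the Sdc4 groups were 0.803 and 0.998 by limma.

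Of the M band genes, Myom2 could be tested and Myom1 could not. Myom2 encodes M-protein, found in the M band of fast fibres. It read -0.38 in B195AP+, 0.26 in Cspg4- Sdc4- and 1.76 in CD1 Sdc4- cells. The Sdc4+ arrays had -5.40 in Myf5SOR+ and -5.25 in Cspg4- cells, neither well above background, and -2.66 in CD1 cells, which was. Cspg4+ cells had -2.99, close to CD1 Sdc4+ and below all Sdc4- arrays. The Sdc4 groups were 2.28 log2 units apart at their nearest arrays, and the difference was -4.98 (SE 0.86, limma adjusted p = 0.433). With the 2 dim Sdc4+ readings at their bounds Myom2 was at least 14.0-fold lower. Without the B195AP+ spot in the streaked region the difference was -5.45, and without the CD1 Sdc4- array it was -4.38. Myom1, which encodes myomesin, the M-band crosslinker of all fibres, was measurable in CD1 Sdc4- cells alone, at -3.03. Its other readings ran from -6.36 to -4.23, and with no filter its adjusted p was 0.768 by limma.

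The Cspg4-cre line and CD1 each supplied an Sdc4+ and an Sdc4- array, which allows the difference to be read within a line, without a test because each side has 1 array. Within the Cspg4-cre line 7 of the 10 genes were measurable on at least 1 array. Of these, 5 were over 2-fold lower in Cspg4- Sdc4+ cells (Ttn, Neb, Actn2, Tcap and Myom2), Actn3 and Ldb3 lay within 2-fold, and none was over 2-fold higher, while 4.82% of all measured genes were over 2-fold lower. Ttn, Actn2, Tcap and Myom2 were above background on the Sdc4- side alone, so they could be called in no other direction. The median of the 7 differences was -3.08, and -1.96 with dim readings at their bounds. Ttn was at least 7.17-fold and Myom2 at least 14.5-fold lower, and Neb was 8.45-fold lower with both arrays above background. Within CD1, 9 genes were measurable and 8 of them were over 2-fold lower in Sdc4+ cells, against 3.56% of all genes. The exception by main probes was Ldb3 at -0.61. Its second probe read -2.35 in CD1 Sdc4- cells and -4.63, not well above background, in CD1 Sdc4+ cells. Of the 8, Ttn, Actn2, Myoz2 and Myom1 were measurable through the CD1 Sdc4- array alone and could be called in no other direction. The median was -3.84, and -3.81 with dim readings at their bounds. Ttn was at least 20.7-fold and Actn2 at least 14.0-fold lower, and Neb (29.8-fold), Myom2 (21.5-fold), Tcap (14.3-fold) and Actn3 (6.72-fold) were measured on both sides. With normexp background correction, Myoz2 (-0.47) and Myom1 (-0.43) lay within 2-fold in CD1. Actn2 (-0.67) and Tcap (-0.67) then did so within the Cspg4-cre line.

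**Figure D2:**
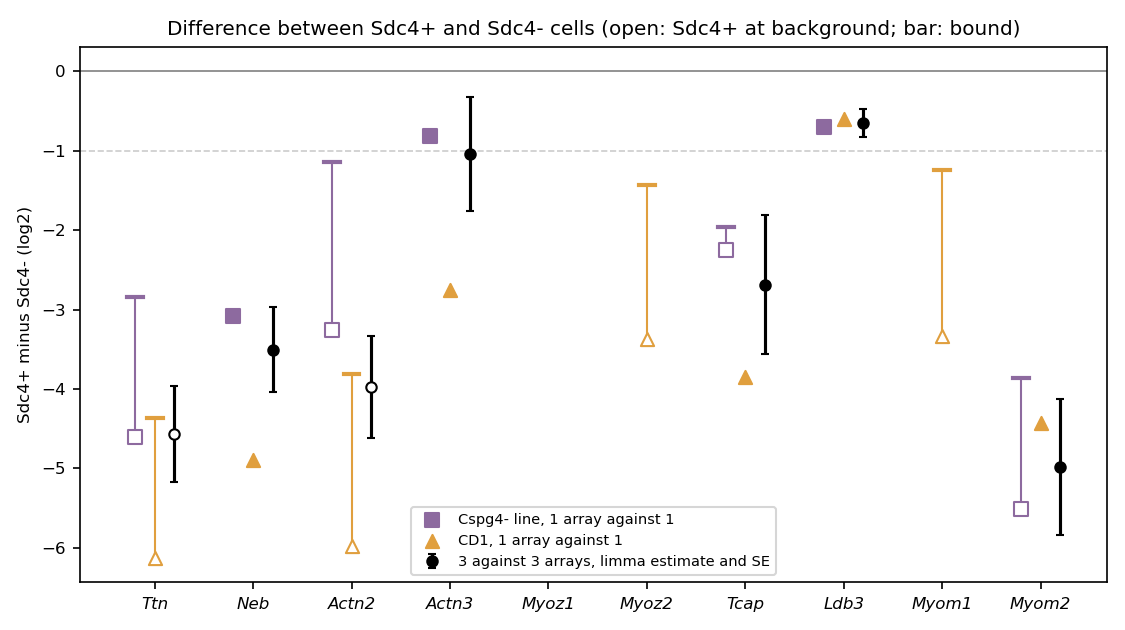
Sdc4+ minus Sdc4- in log2 units for each gene, within the Cspg4-cre line (squares), within CD1 (triangles) and over 3 against 3 arrays with limma's standard error (black, tested genes only). Open symbols are genes at background on the Sdc4+ side, joined to a bar at their lower bound where there is 1 array a side, genes at background on both sides are left out, and the dashed line marks 2-fold lower. Ldb3 sits between -0.70 and -0.61 in all 3 comparisons, and Neb, measured on both sides, reaches -4.89 within CD1.

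Among the Sdc4- populations the main probes followed 1 order in 6 of the 7 tested members, with CD1 highest, Cspg4- next and B195AP+ lowest. Ldb3 was the exception by its main probe, while the readings of its second probe had this order. Of all 10 genes, 8 had their highest level in CD1 Sdc4- cells. Shares of all genes were not computed for these counts, which are a description. The B195AP+ spots of Actn2 and Myom2 lay in the streaked region, as did those of Ttn and Tcap. The second Actn2 probe did not follow the order, at -2.15 in B195AP+ cells. It read -6.25 in Cspg4- and -5.39 in CD1 cells of the Sdc4- group, neither well above background. Compared with Cspg4- Sdc4- cells, CD1 Sdc4- cells read over 2-fold higher in 7 of 9 measurable genes, with a median of 1.82 (1.19 with dim readings at their bounds), against 6.35% of all genes. Of the 7, 5 were above background on both arrays. Myoz2 and Myom1 were measurable through CD1 alone, at least 2.11-fold and at least 1.85-fold higher. Actn3 was 5.34-fold, Actn2 4.01-fold, Tcap 3.52-fold, Myom2 2.83-fold and Neb 2.28-fold higher, while Ttn (1.81-fold) and Ldb3 lay within 2-fold by their main probes. The Ttn probe A_55_P2153021 read 0.30 in CD1 and -0.94 in Cspg4- cells. The mean over all Ttn probes was over 2-fold higher in CD1 cells, at 1.71. With normexp, Neb (0.94), Myoz2 (0.42) and Myom1 (0.30) lay within 2-fold. Compared with Cspg4- Sdc4- cells, B195AP+ cells were over 2-fold lower in Ttn (2.99-fold), Tcap (3.16-fold) and Neb (2.01-fold), against 9.13% of all genes. The other 4 measurable genes lay within 2-fold. The Ttn and Tcap spots of B195AP+ lie in the streaked region, without which Neb and Actn3 alone could be compared. Neb was within 2-fold with the deposited table (-0.91) and with normexp background correction (-0.58), an alternative correction that also brought Ttn (-0.81) and Tcap (-0.61) within 2-fold. The median over the 7 was -0.64, while over all genes measured on those arrays it was 0.24. Both comparisons share the Cspg4- Sdc4- array, and each rests on 1 array a side. Summed over the 10 genes on a linear scale, the signal relative to the 75th percentile was 0.63 to 0.74 on the Sdc4+ arrays, 2.23, 3.75 and 9.98 in B195AP+, Cspg4- and CD1 Sdc4- cells, and 1.42 in Cspg4+ cells. Counting the main probe of each gene, the number of the 10 genes well above background was 2, 3 and 5 in Myf5SOR+, Cspg4- and CD1 Sdc4+ cells, 7, 7 and 9 in the Sdc4- cells in the order above, and 6 in Cspg4+ cells, or 7 there with any probe of Ttn counted.

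Cspg4+ cells, from the same line as both Cspg4- populations, lay between the means of the Sdc4 groups for 5 of the 7 tested genes, the exceptions being Ttn and Actn3. Against Cspg4- Sdc4- cells, 4 of 7 measurable genes were over 2-fold lower by their main probes (2.19% of all genes): Neb by 2.35-fold, Actn2 by 2.22-fold, Myom2 by 9.50-fold, and Ttn, whose main probe differed by -5.03 and was not well above background in Cspg4+ cells. Other probes went the other way for 3 of these genes. The Neb probe A_55_P2116968 read -2.20 in Cspg4+ and -3.23 in Cspg4- Sdc4- cells, both well above background, and the mean over the 3 Neb probes differed by -0.16. A second probe of Ttn and of Actn2 was well above background in Cspg4+ and not in Cspg4- Sdc4- cells. Tcap, Ldb3 and Actn3 lay within 2-fold. So did Neb (-0.81) and Actn2 (-0.43) with normexp background correction. Against Cspg4- Sdc4+ cells, 4 of 6 measurable genes read over 2-fold higher (Neb, Actn2, Tcap and Myom2), where 17.4% of all genes did. Neb, above background on both arrays, was 3.60-fold higher. The other 3 were dim in Cspg4- Sdc4+ cells, so Tcap was at least 3.27-fold and Myom2 at least 1.53-fold higher, and Actn2 allows no fold. With normexp all 4 lay within 2-fold: Neb at 0.58, Tcap at 0.49, Actn2 at 0.23 and Myom2 at 0.12. The Cspg4+ array had the largest share of spots above background of the 7, which moved with this comparison, and its part in it was not tested. In limma's fit, with the lone Cspg4+ array assumed to vary like the others, no gene passed against Sdc4- (0% of genes, 716 at an unadjusted p under 0.05, smallest adjusted p 0.199) or against Sdc4+ (0%, 1531 at an unadjusted p under 0.05, smallest adjusted p 0.142). Ttn differed by -4.79 from Sdc4- (SE 0.85, limma adjusted p = 0.662) and Neb by 2.21 from Sdc4+ (SE 0.76, limma adjusted p = 0.561).

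Of the 10 genes, 4 had more than 1 probe. For Ttn, the probe A_55_P2153021, which lies 9.66 kb nearer the 3′ end than the main probe, followed it with r = 0.996 over the 7 arrays (a description, since the points share arrays). The more distant A_55_P2153031, 114 kb upstream of that 3′ probe and with the A-rich sequence shown above, correlated with the main probe at 0.44. It was well above background in Cspg4+ cells at -2.99, where the main probe read -5.79, and in CD1 Sdc4- cells at -1.98, but not in B195AP+ or Cspg4- Sdc4- cells. The probe A_55_P2424042, outside the streaked region, was well above background in CD1 Sdc4- cells alone. The 3 Neb probes, spread over 105 kb, correlated at 0.89 to 0.90, although they ordered Cspg4+ and Cspg4- Sdc4- cells differently, and the 2 Ldb3 probes at 0.74. The Actn2 pair disagreed, with r = 0.19. The second Actn2 probe, A_55_P2163438, was designed on a cDNA clone sequence, lies 35.6 kb upstream of the main probe and was well above background in B195AP+ cells at -2.15 and Cspg4+ cells at -3.27. It read -5.39 in CD1 Sdc4- cells, where the splice-crossing main probe was highest. Its B195AP+ spot lay in the streaked region. Averaged over both probes, Actn2 was higher in Cspg4+ than in Cspg4- Sdc4- cells, at 0.91, where the main probe gave -1.15. By the same mean it was higher in B195AP+ than in Cspg4- Sdc4- cells (1.81) and within 2-fold between the Sdc4 populations of the Cspg4-cre line (-0.72), while Ldb3 within CD1 was -1.44.

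**Figure D3:**
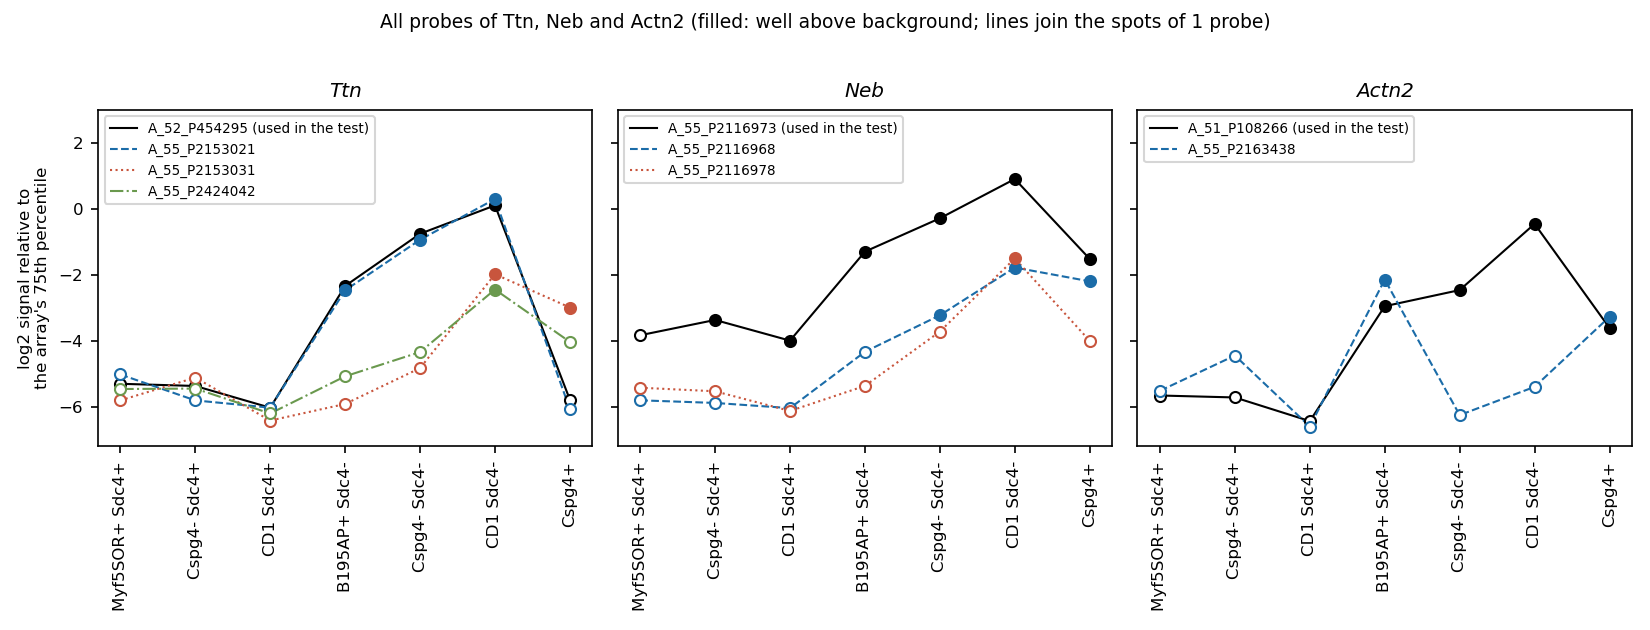
Level of every probe of Ttn, Neb and Actn2 on the 7 arrays, as log2 signal relative to the array's 75th percentile, with filled points well above background and lines joining the spots of 1 probe for the eye. The 2 Ttn probes nearest the 3′ end overlie each other, and the second Actn2 probe is high in B195AP+ and Cspg4+ cells and at -5.39 in CD1 Sdc4- cells.

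RefSeq promoters on GRCm38.p6, from 250 bases before to 50 after the annotated start, were held for 5 of the 10 genes (Ttn, Actn2, Myoz2, Ldb3 and Myom1, with 2 overlapping windows for Ldb3). They were read for letters known from muscle promoters: the E-box CAGCTG, its variant CAGGTG and the further variant CACGTG, all bound by basic helix-loop-helix factors, CTANNNNTAG, which covers sites of the MEF2 family, the CArG box of serum response factor, and TATAAA, all on both strands. The 250 bases before the start are shown for Ttn and Actn2, which had large differences, for Ldb3, which had the smallest, and for Myoz2, which was at background on 6 of the 7 arrays, with matches in capitals. Ttn, at chr2:76982548-76982797 on the minus strand, holds a CTANNNNTAG match and a CAGGTG.
Ttn: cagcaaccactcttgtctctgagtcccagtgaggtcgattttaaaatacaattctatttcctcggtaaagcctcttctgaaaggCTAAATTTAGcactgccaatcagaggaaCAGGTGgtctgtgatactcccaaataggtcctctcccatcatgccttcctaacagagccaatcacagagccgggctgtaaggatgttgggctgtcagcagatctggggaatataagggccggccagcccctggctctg
Actn2, at chr13:12340733-12340982 on the minus strand, holds CACGTG at 2 places.
Actn2: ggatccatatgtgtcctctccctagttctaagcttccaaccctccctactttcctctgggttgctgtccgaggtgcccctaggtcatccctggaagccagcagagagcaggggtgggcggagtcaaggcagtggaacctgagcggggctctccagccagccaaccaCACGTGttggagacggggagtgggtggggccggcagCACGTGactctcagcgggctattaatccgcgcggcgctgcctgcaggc
Ldb3, at chr14:34588608-34588857 on the minus strand, holds a CArG box and a CTANNNNTAG match.
Ldb3: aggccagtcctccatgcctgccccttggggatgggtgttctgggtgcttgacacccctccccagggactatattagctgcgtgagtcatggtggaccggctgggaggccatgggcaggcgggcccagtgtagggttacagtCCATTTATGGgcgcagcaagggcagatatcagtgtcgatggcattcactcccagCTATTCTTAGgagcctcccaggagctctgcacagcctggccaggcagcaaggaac
Myoz2, at chr3:123034988-123035237 on the minus strand, holds a CTANNNNTAG match close to a CAGCTG.
Myoz2: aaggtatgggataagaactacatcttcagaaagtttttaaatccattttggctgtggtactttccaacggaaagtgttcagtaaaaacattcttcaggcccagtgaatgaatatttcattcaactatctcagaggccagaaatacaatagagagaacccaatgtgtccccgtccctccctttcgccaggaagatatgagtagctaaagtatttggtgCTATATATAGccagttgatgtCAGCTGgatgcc
CTANNNNTAG occurred for 3 of the 5 genes and in 3.69% of the 32851 promoters of the table, and the CArG box for 2 (Ldb3 and Myom1) and in 1.63%. CAGCTG occurred for 1 gene and in 16.3% of promoters, CAGGTG for 1 gene and in 20.2%, CACGTG for 1 gene and in 7.15%, and TATAAA for none and in 13.6%. These are matches of letters, not measured sites. By their main probes Ldb3, with matches to the 2 rarest motifs, and Ttn, with 1 of them, had differences of -0.65 and -4.57 between the Sdc4 groups. Any link between such matches and the differences was not tested.

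Other tested genes of the sarcomere were less uniform. Of 39 further genes of the Z disc, costamere, M band and filament regulation, 25 were tested. Of these, 20 were lower and 5 higher in Sdc4+ cells, with a median of -0.40, while 56.6% of all genes tested were lower. Groups without overlap were found for 4 of the 25, all lower in Sdc4+, against 9.59% of all genes. The same number had an unadjusted p under 0.05 by limma, all lower, against 5.41% of all genes, and none passed the adjusted test. The largest differences were those of Pdlim3 (-4.73, at least 8.54-fold lower), a PDZ and LIM partner of alpha-actinin, Myom3 (-2.64), the third myomesin, Des (-2.25), which encodes the intermediate filament desmin, and Ankrd2 (-1.19), a titin-binding ankyrin repeat protein. Adjusted p-values of these 4 were 0.433, 0.531, 0.486 and 0.680 by limma. The smallest were those of Hspb7 (0.17), Trim54 (0.10), Pdlim7 (-0.07) and Synpo2l (-0.02). Within CD1, 15 of the 32 measurable genes of this list were over 2-fold lower in Sdc4+ cells, against 3.56% of all genes. Some of these were above background on the Sdc4- array alone. Within the Cspg4-cre line 4 of 25 were over 2-fold lower, against 4.82% of all genes. The relatives used outside striated muscle were tested for all 9 genes, with a median of -0.14, 7 lower and 2 higher. The non-muscle alpha-actinins Actn1 and Actn4 differed by 0.34 and -0.09, against -3.98 for Actn2, and were well above background on all 7 arrays. The largest of the 9 differences were those of Palld (-0.41), Pdlim4 (-0.39), Actn1 and Lasp1 (0.21), and the smallest those of Pdlim2 (-0.18), Pdlim1 (-0.14), Actn4 and Zyx (0.00). Palladin and zyxin, the products of Palld and Zyx, belong to actin bundles and focal adhesions of many cell types.

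**Figure D4:**
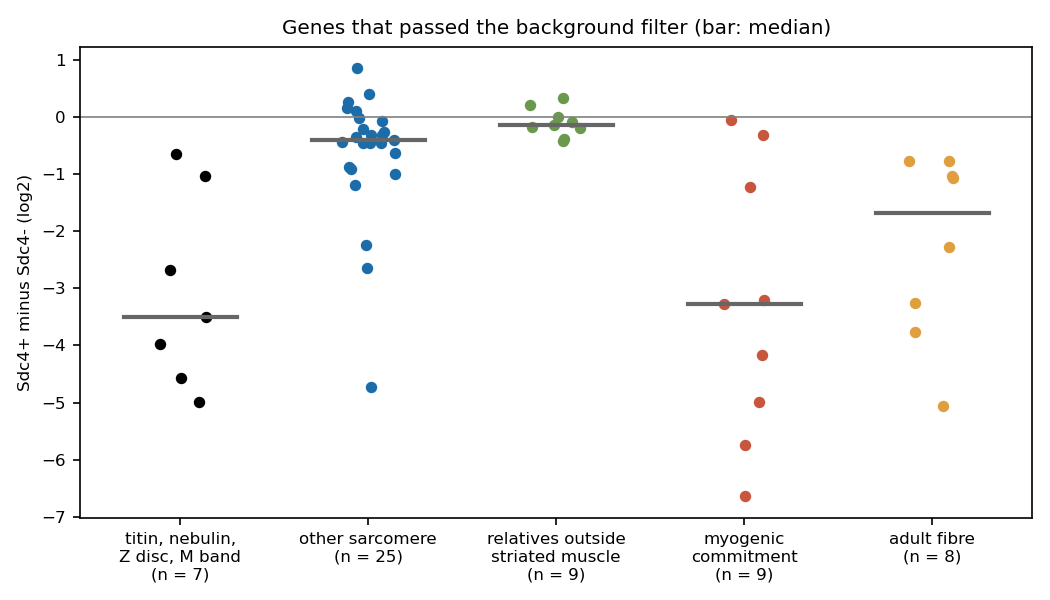
Sdc4+ minus Sdc4- in log2 units for the tested genes of 5 lists, with 1 point per gene and a bar at the median. Medians are -3.50 for the titin, nebulin, Z disc and M band genes, -0.40 for other sarcomere genes, -0.14 for relatives outside striated muscle, -3.27 for myogenic commitment and -1.68 for adult fibre genes.

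Most tested markers of myogenic commitment moved with these genes between the Sdc4 groups. Of 12 such markers, which include Myog and Myh3, 9 passed the same filter, which the Sdc4- arrays alone could meet. All 9 were lower in Sdc4+ cells (median -3.27, none past the adjusted test), against 56.6% of all genes. The groups did not overlap for 6, against 9.59% of all genes. They overlapped for Mymx (-0.06), Mef2c (-0.31) and Mymk (-1.23), and Mymx and Mymk were lowest in B195AP+ cells. The list's summed signal was 1.14 to 2.14 on the Sdc4+ arrays, 5.65 to 52.2 on the Sdc4- arrays and 3.58 in Cspg4+ cells. Markers of adult fibres, a list that shares Actn3, were tested for 8 of 14 genes. All 8 were lower in Sdc4+ cells with a median of -1.68, against 56.6% of all genes, and 5 without overlap, against 9.59%. Their summed signal was 2.70 to 3.66, 6.06 to 32.7 and 4.34 in the same order, while Myh2 and Mylpf were not well above background on any array. Of 9 heart markers, Myl7 and Nkx2-5 were at background throughout, whereas Myl4, Tnni3 and Nppa were above it on all 7 arrays. Of the 5 tested, Myl4 (-2.005) and Tnnt2 (-4.27) were lower in Sdc4+ cells without overlap, as were 9.59% of all genes. For Tnni3 (-0.37), Nppb (-0.24) and Nppa (0.61) the groups overlapped. Myl4 had the highest level of the list on every array. The list's summed signal was 2.18 to 2.85 on the Sdc4+ arrays, 5.13 to 25.9 on the Sdc4- arrays and 2.51 in Cspg4+ cells. Of 8 smooth muscle and myofibroblast markers, Myh11, Cnn1, Lmod1 and Actg2 were at background throughout and Acta2, Tagln and Smtn above it on all 7 arrays, with summed signals of 11.1 to 19.3, 16.5 to 19.9 and 18.9 in the same order. Cell cycle markers, tested for 5 of 6 genes, all had lower means in Sdc4+ cells (median -0.94), against 56.6% of all genes. The groups overlapped for all 5, 1 had an unadjusted p under 0.05 by limma and none passed the adjusted test. Within the Cspg4-cre line and CD1 their medians were -0.42 and -0.37. They had summed signals of 14.2 to 34.6 on the Sdc4+ and 22.2 to 61.1 on the Sdc4- arrays. The part of differentiated cells, of line and of slide row in the differences of the titin, nebulin, Z disc and M band genes was not tested.

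The 7 tested genes resembled each other across the arrays, which is a description. They passed a filter that the Sdc4- arrays alone could meet, and the difference between the Sdc4 groups enters each correlation. Readings at background entered as values, and the same measure was not computed for other sets of genes. The correlation of each with the mean of the other 6 was 0.97 for Neb, 0.96 for Actn2, 0.91 for Myom2, 0.90 for Ttn, 0.86 for Tcap, 0.84 for Ldb3 and 0.71 for Actn3. Their mean centred profile was -1.62, -1.50 and -1.32 in Myf5SOR+, Cspg4- and CD1 Sdc4+ cells, 0.57, 1.39 and 2.77 in B195AP+, Cspg4- and CD1 Sdc4- cells, and -0.29 in Cspg4+ cells. Among 3142 other genes with a range of at least 2 log2 units, the 10 with the highest Pearson correlation to this profile over the 7 arrays were Pdlim3 (0.99), Casq2 (0.99), Mybpc1 (0.99), Tnni2 (0.99), Myh1 (0.99), Tnnc2 (0.98), Cox8b (0.98), Cacna1s (0.98), Myl1 (0.98) and 5430431A17Rik (0.97). Casq2 encodes a calcium store protein of the sarcoplasmic reticulum, Mybpc1 a thick filament protein, Tnni2 and Tnnc2 fast troponins, Myh1 a fast myosin heavy chain, Myl1 a myosin light chain and Cacna1s the voltage sensor of the skeletal muscle fibre. Myh1 read -5.82, -5.81 and -5.26 on the Sdc4+ arrays and -2.95, -0.37 and 1.58 on the Sdc4- arrays, in the same order. The points share their arrays and the arrays' line, so the correlations describe these 7 populations and carry no p.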

How the data were processed

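The authors deposited fluorescence intensity per spot (from Agilent's software Feature Extraction, version 11.5.1.1 in the headers), with background subtraction and spatial detrending but no normalization across arrays, and a series table of log2 values, which the submitters' processing notes connect with lumi. RNA was column-purified and amplified, per the labels' protocols. The labels name biotin, whereas the files hold 1 green channel. Levels are log2 processed intensity minus each array's 75th percentile over non-control spots, with outlier spots set to missing. Testing required a probe to be well above background on 3 or more of 7 arrays, and a gene was its passing probe with the highest mean. Means of the Sdc4+, Sdc4- and Cspg4+ groups were estimated by limma 3.58.1 under R 4.3.3, with Benjamini-Hochberg adjustment at 0.05 over all 19760 genes. The fit was tested on simulated data. Of the probes, 27656 matched the reference gene table by accession. Named genes were all 10 members, and from the 2 related lists the 4 largest and 4 smallest differences. Members and lists were chosen with earlier results of these data known. Alternatives covered normalization, background correction, filter, probe rule, streaks, the deposited log2 table, line blocks, array weights and arrays left out.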

Additional observations from a re-analysis of the deposited data

Results flagged for a closer look

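2 secondary probes gave signal well above background where the main probe of the gene did not share the pattern, in data that the gene-level comparisons leave aside. The Ttn probe A_55_P2153031 read -2.99 in Cspg4+ cells and -1.98 in CD1 Sdc4- cells, while it was at background on the Sdc4+ arrays. The Actn2 probe A_55_P2163438 read -2.15 in B195AP+ cells and -3.27 in Cspg4+ cells, and gave only background in Sdc4+ cells. No cause of these readings was tested.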

How the results depend on the processing

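All 7 tested genes stayed lower in Sdc4+ than in Sdc4- cells under each of the 19 to 21 alternatives that gave them a value, and none of them passed the adjusted test in any. Adjusted p-values ranged from 0.0558 to 0.924 for Ttn and from 0.291 to 0.958 for Actn3. The median difference of -3.50 became -0.92 with normexp background correction. That setting started from the mean and background signals of the spots, added an offset of 50 and used quantile normalization. The part of each step in the change was not tested. It was -0.84 when a probe had to be above background on all 7 arrays, which left 2 members, 1 of them without overlap. With normexp the medians were also -0.67 within the Cspg4-cre line, -1.66 within CD1 and 0.18 for Cspg4+ against Cspg4- Sdc4+ cells. Leaving out 1 array moved the median between -4.04 and -2.94, the count without overlap between 6 and 7, and the counts past the test not at all (0). With no filter on dim probes, 1 member passed for Cspg4+ against Sdc4- (Ttn, -4.79, limma adjusted p = 0.018, its main probe at background in Cspg4+ cells), together with 2484 genes of the array, and 2421 genes but 0 members passed against Sdc4+. The cause was not tested. With the mean over all probes, an alternative chosen after seeing the data, Actn2 in Cspg4+ against Cspg4- Sdc4- cells changed sign to 0.91, and the other values that this mean carried across 2-fold are given in the report. Of all genes, 5 passed for Sdc4+ against Sdc4- with line as a random block (consensus correlation 0.601), 1 without the CD1 Sdc4- array and 0 in every other setting, members never among them. Without the streaked region Ttn could not be tested, and the median over the other 6 was -3.52. Signal over background limits the readings of Ttn and Actn2 on all Sdc4+ arrays, and of Myoz1, Myoz2 and Myom1 on nearly all arrays. No paired analysis by replicate number was possible because the labels number every array as replicate 1 of its own population, so line was the block tried.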
